A study of Zea mays with 8 samples.

Results

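The regions described here are stretches of the maize genome that the transcription factor RAMOSA1 (RA1) marked in ear primordia with both of its tagged forms and that held no RA1 peak in tassel primordia. Peaks of the 4 chromatin immunoprecipitation (ChIP-seq) lists on chromosomes 1 to 10, one list for each tissue (tassel, ear) and tag (HA, YFP), were joined into regions wherever they shared at least 1 bp. Of the 25032 regions this gave, 501 (2.0%) held an ear HA and an ear YFP peak and no peak of either tassel list. They made up 69.5% of all 721 ear regions that carried both tags. Another 80 of the 721 also held a peak of 1 tassel list, and 140 were found in all 4 lists. An ear YFP peak was present at 10.9% of the 6641 ear HA peaks, and an ear HA peak at 5.63% of the 12840 ear YFP peaks.

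RA1 is a zinc finger protein of plants that carries EAR motifs, short stretches through which a transcription factor recruits co-repressors of the TOPLESS family such as REL2 in maize. It acts at the base of spikelet pair meristems, where it imposes a limited fate on them, and maize plants that lack it bear long branches in place of spikelet pairs on both ear and tassel. A ChIP peak is a stretch where fragments bound by the tagged protein pile up beyond the input DNA, and its summit is the base where the pileup is highest.

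Both tissues came from plants labelled ra1/ra1 in B73 with a transgene, RA1-HA or RA1-YFP, so every library shares the ra1 mutant background. The HA-FLAG or YFP tag was joined in frame to the N-terminus of RA1 in constructs made for expression in the native domain and able to complement the mutant. Constructs were put into the HiII background, crossed to ra1-R and backcrossed. The number of transformation events behind each line is not given in the sources used here. Pooled primordia of 1 to 5 mm were used, tassels at about 4 weeks and ears at 6 weeks after planting. RA1-HA was pulled down with an anti-HA and RA1-YFP with an anti-GFP antibody, and there is 1 ChIP library for each tissue and tag. The transgene, the antibody and the library cannot be told apart, so HA and YFP were kept apart and not averaged.

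The regions were chosen by the authors' peak calls in the 4 lists. Widths, summit heights and scores come from those same calls and are given as a description, without a test. Intervals in brackets are exact 95% binomial (Clopper-Pearson) intervals on shares of regions. They cover counting error within these libraries and not the variation between plants or repeated immunoprecipitations. All coordinates are those of the maize B73 assembly AGPv2. Summit heights, whose unit the files do not state, are whole numbers read as counts of piled-up fragments that are not scaled to depth, and library depths are unknown. A region without a tassel peak is one that did not pass the authors' limit in either tassel list. The tassel lists were shorter, with 2875 HA and 4797 YFP peaks on chromosomes 1 to 10, against 6641 and 12840 in ear. Lower occupancy and lower depth in tassel cannot be told apart from these lists.

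The summits of the 2 tags seldom coincided. In the 501 regions the HA and the YFP summit lay a median of 214 bp apart, with quartiles at 80 and 512 bp, and none of the 501 had both summits on the same base, which allows a share of up to 0.599% by a floor of 3 counts of the total and up to 0.734% by the exact interval. Summits at most 10 bp apart were found in 14 regions (2.79%, interval 1.54 to 4.64), and summits at most 50 bp apart in 82 (16.4%, 13.2 to 19.9). A distance of more than 500 bp was found in 130 regions. In the 140 regions of all 4 lists, 97 (69.3%, 60.9 to 76.8) had summits at most 10 bp apart, and 125 (89.3%, 82.9 to 93.9) at most 50 bp. The 80 regions with 1 tassel list lay between, with 35 (43.8%, 32.7 to 55.3) at most 10 bp and 57 (71.2%, 60 to 80.8) at most 50 bp apart. The YFP summit had the higher coordinate in 266 of the 501 regions (53.1%, 48.6 to 57.5) and the lower one in 235.

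**Figure D1:**
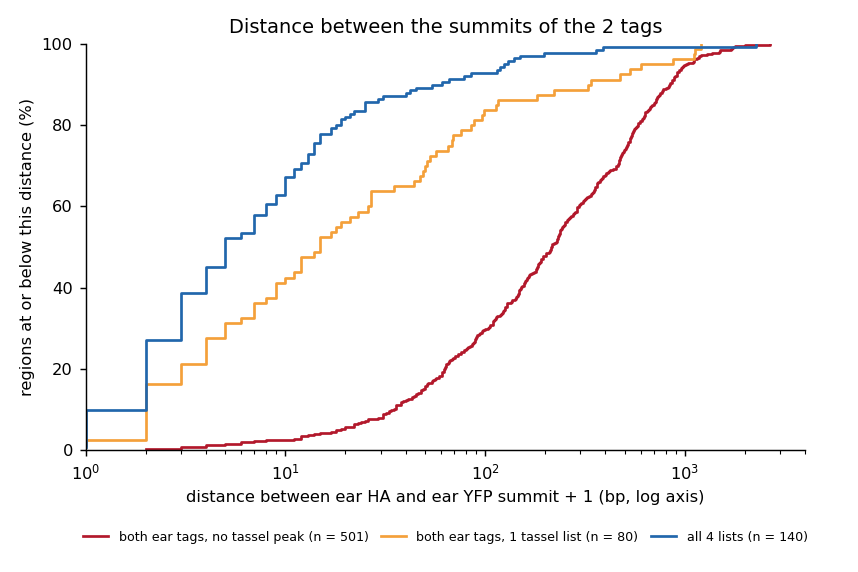
Cumulative share of ear regions found with both tags (vertical axis, percent) by the distance between their HA and YFP summits plus 1 (horizontal axis, bp, log scale), for the 501 regions without a tassel peak, the 80 with 1 tassel list and the 140 of all 4 lists. At 50 bp the first curve stands at 16.4% and the last at 89.3%.

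The wide spacing was also there among regions of like height. Among regions whose 2 summit heights summed to 20 to 29 fragments, 21 of 119 without a tassel peak (17.6%, 11.3 to 25.7) had summits at most 50 bp apart, against 29 of 36 (80.6%, 64.0 to 91.8) in all 4 lists. At summed heights of 15 to 19 the counts were 33 of 221 (14.9%, 10.5 to 20.3) and 12 of 16 (75%, 47.6 to 92.7). Up to a sum of 29 fragments, greater summed height did not bring the summits closer. Their median distance was 155 bp at sums up to 14, 231 bp at 15 to 19 and 336 bp at 20 to 29, and it was 131.5 bp in the 4 regions at 30 or more.

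Spacing followed the width of the region more closely. The median summit distance was 60 bp in the 23 regions of at most 500 bp, 127.5 bp in the 188 of 501 to 1000 bp, 250 bp in the 149 of 1001 to 1500 bp and 597 bp in the 141 above that. As a share of the region's width it was a median of 21.6%, with quartiles at 8.99% and 38.2%. Across the 501 regions, width and summit distance had a Spearman rho of 0.57. The 2 measures share the peak borders, and the value is a description. In regions of all 4 lists the median was 6 bp at 501 to 1000 bp of width (68 regions) and 4.5 bp above 1500 bp (14 regions). Regions with 1 tassel list had a median of 14 bp at 501 to 1000 bp (32 regions), but 71.5 bp at 1001 to 1500 bp (6 regions) and 336 bp above that (13 regions), so wide spacing in wide regions was also found there.

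The YFP pileup was usually higher than the HA pileup. The HA summit ranged from 3 to 28 fragments with a median of 7 and quartiles of 6 and 8. The YFP summit ranged from 4 to 47 fragments with a median of 9 and quartiles of 8 and 11. YFP was the higher tag in 389 regions (77.6%, 73.7 to 81.2), the tags were equal in 58, and HA was higher in 54 (10.8%, 8.20 to 13.8). The log2 ratio of the YFP to the HA height had a median of 0.42 and a mean of 0.39 ± 0.40 (SD over 501 regions). The whole ear lists have median heights of 6 in HA and 8 in YFP, an offset in the same direction. Heights are whole numbers with ties at these medians, so fewer peaks of a whole list lie above its median than at or below it. The share of the whole lists above their medians was not computed. In the 501 regions, 62.7% of the HA peaks and 62.1% of the YFP peaks were above the median of their list. Both tags were lower than in the regions of all 4 lists, which had a median height of 17 in each.

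Regions of all 4 lists had the opposite order. In them HA was higher in 84 of 140 (60%, 51.4 to 68.2) and YFP in 46 (32.9%, 25.2 to 41.3), and the median log2 ratio was -0.11. With 1 tassel list, YFP was higher in 41 and HA in 31 of 80, with a median of 0.07. The contrast was present at like height for summed heights of 15 to 29 fragments. At summed heights of 20 to 29 fragments the median log2 ratio was 0.53 in the 119 regions without a tassel peak, of which 7 had the higher summit in HA. It was 0 in the 36 of all 4 lists, of which 17 did. At sums of 15 to 19 the median ratios were 0.36 (221 regions) and -0.08 (16 regions). Up to a sum of 14 both were 0.42, in 157 regions without a tassel peak and only 3 of all 4 lists.

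**Figure D2:**
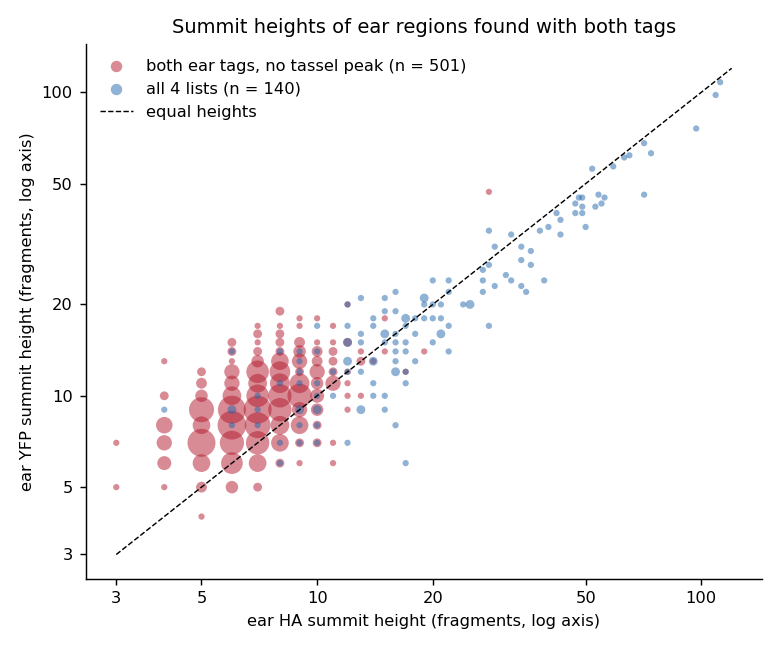
Ear YFP summit height against ear HA summit height, both in fragments on log axes, with circle area in proportion to the number of regions at each pair of heights. The 501 regions without a tassel peak (red) gather above the line of equal heights, with YFP higher in 389, while HA was higher in 84 of the 140 regions of all 4 lists (blue).

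The authors' score, read as -10 log10 of the peak caller's p-value, starts at 50 in each list. In the 501 regions it had a median of 57.6 in HA (quartiles 53.0 and 66.7, highest 141) and 60.3 in YFP (53.9 and 71.9, highest 228). Scores of 100 or more were found for 10 HA peaks (2.0%, 0.961 to 3.64) and 22 YFP peaks (4.39%, 2.77 to 6.57), against 4.07% of the whole ear HA list and 3.6% of the whole ear YFP list. Only 2 of the 501 regions had such a score with both tags. The whole lists also include regions shared with tassel. Of those in all 4 lists, 111 of 140 HA peaks and 71 of 140 YFP peaks reached 100. The 95th percentile of the score was 87.95 in HA and 98 in YFP in the 501 regions. In ear peaks of a single tag without a tassel peak it was 82.63 in HA and 91.08 in YFP. The medians were close to those of the whole lists, 57.9 in HA and 59.9 in YFP. In 144 regions (28.7%, 24.8 to 32.9) both scores were under 60. Just inside the limit, 43 HA peaks (8.58%) and 33 YFP peaks (6.59%) scored below 51, near the shares in the whole lists, 8.09% in HA and 6.03% in YFP. In 3 regions both did.

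The 2 scores of a region had a Spearman rho of 0.04 over the 501 regions, whereas the heights had a rho of 0.51 and the widths one of 0.64. These are descriptions over regions that share 2 libraries, and at scores this near the limit the low value is not read as a finding. In the 140 regions of all 4 lists the rho of the scores was 0.73 and that of the heights 0.89.

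At like height, scores were lower than in regions shared with tassel. HA peaks of 10 to 12 fragments had a median score of 59.8 in the 54 regions without a tassel peak and of 115 in 18 regions of all 4 lists. YFP peaks of 10 to 12 fragments scored a median of 62.4 (157 regions) and 87.9 (17 regions). At 6 to 7 fragments the difference was smaller. The medians there were 56.2 (204 regions) and 62.5 (7 regions) in HA, and 59.0 (106 regions) and 60.8 (6 regions) in YFP. MACS, the peak caller, sets a pileup against a local background, so equal heights need not give equal scores. The input libraries' own values were not analysed here, and the part of the local background in this difference was not tested. The peaks also differed in width: HA peaks of 10 to 12 fragments had a median width of 899 bp without a tassel peak and 300.5 bp in all 4 lists.

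Both peaks of a region were wide. The HA peak had a median width of 723 bp (quartiles 513 and 1062 bp, range 210 to 2448 bp) and the YFP peak one of 970 bp (617 and 1388 bp, range 277 to 4367 bp). Ear peaks of a single tag without a tassel peak had medians of 510 bp in HA (5587 regions) and 640 bp in YFP (11917 regions). A width over 1000 bp was found in 138 HA peaks (27.5%, 23.7 to 31.7) and 238 YFP peaks (47.5%, 43.1 to 52.0), against 10.5% of the whole ear HA list and 23.9% of the whole ear YFP list. The library fragments were size-selected at 200 to 500 bp, so many of these peaks are wider than a fragment. The rule asks for a shared stretch of at least 1 bp, which a wider peak meets more readily. The part of this in the difference was not tested. Regions with both ear tags and a tassel peak met the same rule, and their peaks were narrower than those of a single tag. Their median widths were 475.5 bp in HA and 494.5 bp in YFP with 1 tassel list (80 regions). In all 4 lists (140 regions) they were 458 and 519 bp. Height was closer to that of the lists. A height of at least 10 was found in 64 HA peaks (12.8%, 9.98 to 16.0) against 12.2% of that list, and in 230 YFP peaks (45.9%, 41.5 to 50.4) against 34.7%.

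**Figure D3:**
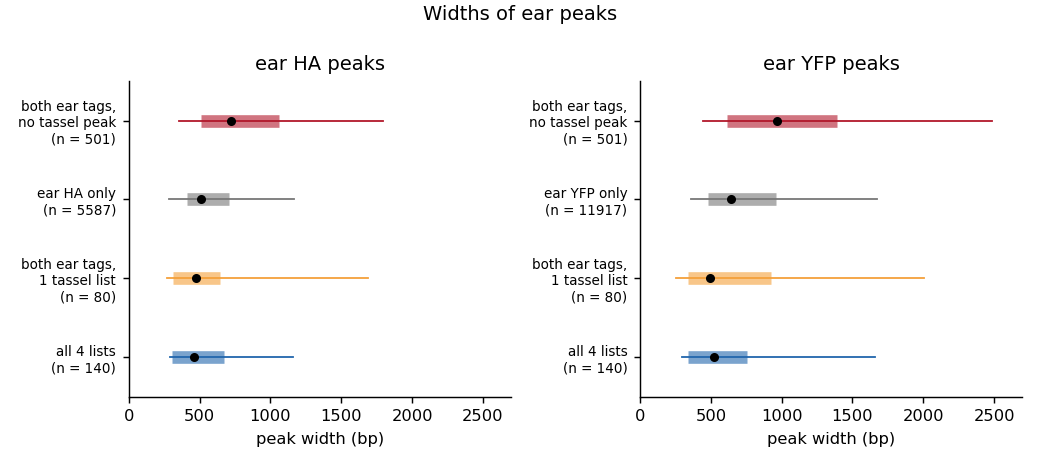
Peak widths in bp (horizontal axis) of ear HA peaks (left) and ear YFP peaks (right) by the kind of region they lie in. Points are medians, thick bars the quartiles and thin lines the 5th to 95th percentiles over peaks. Peaks of regions with both ear tags and no tassel peak have the highest medians, 723 bp in HA and 970 bp in YFP.

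Within a region the 2 peaks mostly covered each other. The shared stretch had a median length of 574 bp, which was 97.3% of the shorter peak at the median, and 460 of 501 regions (91.8%, 89.1 to 94.1) shared at least 50% of it. The HA peak lay wholly inside the YFP peak in 165 regions, the YFP peak inside the HA peak in 38, and 298 overlapped in part. YFP was the wider peak in 377. Both summits fell in the shared stretch in 353 regions (70.5%, 66.3 to 74.4), 1 summit in 112 regions, of which 87 had the HA summit there and 25 the YFP summit, and neither in 36. In the regions of all 4 lists both summits did so in 139 of 140.

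At the edge of the rule, 15 regions owed their place to an overlap of less than 100 bp, with a median summit distance of 631 bp. The smallest overlap was 12 bp, at chr5:106723267-106724373, where heights were 5 in HA and 7 in YFP and the summits lay 511 bp apart. Just outside, 16 pairs of an ear HA and an ear YFP peak without a tassel peak missed each other by at most 100 bp. They had median heights of 7 fragments (HA) and 10 fragments (YFP), and their median summit distance was 794 bp. The closest miss was 7 bp, on chromosome 7, between an HA peak at chr7:162430483-162431273 and a YFP peak at chr7:162430024-162430475.

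Ordered by the poorer of their 2 score ranks, one in each ear list, the first of the 501 was at chr9:35404662-35407039. Its HA peak scored 120 with a height of 11 fragments and its YFP peak 181 with 13 fragments, and the summits lay 125 bp apart in a region of 2378 bp. The second, at chr5:31542019-31546022, scored 102 and 117, but its summits at 8 and 11 fragments were 2661 bp apart, the largest distance of the 501. These were the 2 regions with both scores at 100 or more. The third, at chr1:23231022-23232161, had heights of 15 and 18 fragments, summits 500 bp apart and a tassel YFP peak of 4 fragments at a gap of 1692 bp.

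Of the next 7 in rank, 5 had summits 50 to 1098 bp apart and heights of 7 to 9 fragments in HA and 7 to 19 in YFP. They lie at chr8:99792257-99793125 and chr8:69888144-69890693, at chr7:63305729-63308348, at chr4:88539368-88540677 and at chr1:6921097-6924010. The other 2 lie on chromosome 7 and had closely placed summits. The one at chr7:153677525-153678044 is 520 bp long, had 11 fragments with both tags, summits 3 bp apart and scores of 125 in HA and 97.1 in YFP. The one at chr7:62387401-62388129 had the highest pileup of the set, 28 fragments in HA and 47 in YFP with summits 7 bp apart, yet its scores were 74.96 and 91.8. It was the only one of the 501 with both heights at 20 or more, a level that 51 of the 140 regions of all 4 lists reached.

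Some other high pileups also came with low scores, but not all. The third region in rank, with 15 fragments in HA and 18 in YFP, scored 95.75 and 104.15. At chr9:103649980-103650891, heights of 15 in HA and 14 in YFP came with scores of 54.3 and 67.8 and summits 18 bp apart. At chr8:106626882-106628443, 13 fragments with each tag scored 67.3 and 72.9, with summits 42 bp apart. A region at chr1:182595077-182596337 differed between the tags, with a height of 19 and the highest HA score of the set, 141, against a height of 14 and a score of 77.4 in YFP, and summits 53 bp apart.

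In 36 regions both scores were at least 70. Their summit distance had a median of 198.5 bp and quartiles of 87.25 and 507.75 bp, near those of all 501. Beside the 2 regions on chromosome 7 given above, the closest summits among them were 21 bp apart at chr10:108851692-108854231 (9 fragments with both tags), 34 bp apart at chr5:109666303-109667652 (10 in HA, 12 in YFP) and 35 bp apart at chr2:199156458-199157865 (8 with both).

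The widest region spanned 4367 bp at chr8:12982861-12987227 and was a single YFP peak of 14 fragments that enclosed an HA peak of 1587 bp and 10 fragments. The next widest, at chr1:80918309-80922421, likewise held an HA peak of 1158 bp inside a YFP peak of 4113 bp, with heights of 8 and 12. The narrowest were 320 bp at chr2:196615004-196615323, with heights of 6 and 10, 354 bp at chr9:87571970-87572323, with 6 and 8, and 371 bp at chr10:30129395-30129765, with 8 and 7. Summits in these 3 lay 60, 2 and 32 bp apart.

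Nearly every region held 1 peak of each tag. In 2 regions a single YFP peak spanned or touched a pair of HA peaks: at chr2:141885788-141887558, with HA heights of 7 and 6 under a YFP height of 8, and at chr10:6403761-6405220, with HA heights of 6 and 7 and a YFP height of 9. No region held more than 1 YFP peak. The most unequal pair in favour of YFP was at chr7:71948580-71950299, with 4 fragments in HA and 13 in YFP (log2 ratio 1.70) and summits 1198 bp apart. The most unequal in favour of HA was at chr10:6460144-6461060, with 11 and 6 fragments (log2 ratio -0.87) and summits 633 bp apart.

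The regions lay on every chromosome, with 2.43 per 10 Mb over a span taken to end at the last peak in any of the lists. Chromosomes 10 and 9 had the most for their length, 3.40 and 3.07 per 10 Mb (51 and 48 regions), and chromosome 3 the fewest, 2.03 (47 regions). For every 100 ear HA peaks there were 10.02 regions on chromosome 10 (interval 7.55 to 12.96), 9.07 on chromosome 9 (6.77 to 11.9) and 6.56 on chromosome 4 (4.92 to 8.53), the lowest, so the intervals of the extremes overlap.

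Along the chromosomes, 231 regions (46.1%, 41.68 to 50.6) lay in the outer 40% of the span, against 40.4% (39.1 to 41.66) of ear regions of HA only and 40.9% (39.97 to 41.75) of ear regions of YFP only. The interval of the 501 regions begins just above the end of the HA-only one and overlaps the YFP-only one. Of 10 equal bins of the span, bins 9 and 10 held 67 regions each (13.4%, 10.5 to 16.7), and bin 3 held the fewest, 33 (6.59%, 4.58 to 9.13). Bin 10 was also the fullest in HA-only (11.6%) and YFP-only (11.4%) regions and in regions of all 4 lists (15%). Bin 3 held 9.72%, 9.71% and 6.43% of these sets, in the same order. The middle 20% held 95 (18.96%, 15.6 to 22.7), against 21.0% of HA-only and 20.02% of YFP-only regions. Of the ear regions with both tags that also held a tassel peak, the outer 40% held 72 of the 140 of all 4 lists (51.4%, 42.8 to 59.96) and 38 of the 80 with 1 tassel list (47.5%, 36.2 to 59.0), and the middle 20% held 16 (11.4%, 6.68 to 17.9) and 12 (15%, 7.998 to 24.7). All these intervals overlap those of the 501 regions.

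**Figure D4:**
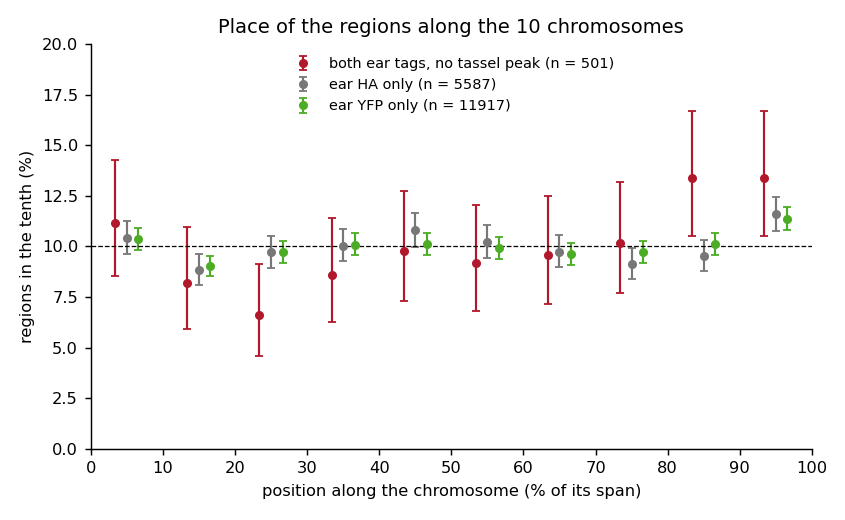
Share of regions in each of 10 equal bins of the chromosome span (vertical axis, percent; horizontal axis, percent of the span, all 10 chromosomes together) with exact 95% binomial intervals. The dashed line marks an even spread at 10%. Regions with both ear tags and no tassel peak are lowest in bin 3, at 6.59%, and highest in bins 9 and 10, at 13.4% each.

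The longest stretch without such a region was on chromosome 3, chr3:12313674-71535751, or 59.2 Mb. Ear peaks were present there, 158 of HA and 307 of YFP, as were 5 ear regions with both tags that also held a tassel peak. On the other chromosomes the longest stretches were 13.2 to 23.7 Mb. Over all chromosomes there were 7.54 regions for every 100 ear HA peaks. The stretch was picked because it is empty, so its count is given without an interval.

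The regions were few for the length of the chromosomes, 2.43 per 10 Mb, and the gaps between them depend on that number. No gap expected at this number was computed, so neither clustering nor isolation is read from the values below. The gap to the next of the 501 had a median of 1391433 bp, and 33 regions (6.59%, 4.58 to 9.13) had another within 100 kb. Those 33 formed 15 pairs and 1 group of 3. The group of 3 spans 133 kb at chr5:13737678-13870909. Its regions had HA heights of 10, 10 and 10 and YFP heights of 15, 10 and 9 in order along the chromosome, with summits 90, 241 and 65 bp apart. The closest pair was 6302 bp apart, also on chromosome 5, at chr5:91585406-91587397 (heights 10 and 11) and at chr5:91593700-91596105 (8 and 9). The next, on chromosome 1, was 6420 bp apart, at chr1:165741992-165743260 (7 and 10) and at chr1:165749681-165751624 (11 and 14). The third, on chromosome 3, was 11747 bp apart, at chr3:165460536-165463100 (8 and 19) and at chr3:165474848-165476130 (6 and 7).

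Other ear peaks, far more in number, were nearer. An ear HA peak outside the 501 regions lay at a median gap of 105799 bp and an ear YFP peak at 49747 bp. At least 1 of them lay within 10 kb of 117 regions (23.4%, 19.7 to 27.3). Ear regions with both tags and a tassel peak were far fewer, 80 with 1 tassel list and 140 of all 4 lists. The nearest of them lay at a median of 3223410 bp. Such gaps depend on how many peaks or regions a set holds, and they are not read as a separation of the kinds of region.

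Distances to tassel were close to those of other ear regions. The gap to the nearest tassel peak of either tag had a median of 90254 bp, with quartiles of 34057 and 193626 bp, against 104099 bp for ear regions of HA only and 101961 bp for those of YFP only. A tassel peak lay within 5 kb (5000 bp) of 33 regions (6.59%, 4.58 to 9.13), against 5.33% of HA-only and 5.22% of YFP-only regions, and within 10 kb (10000 bp) of 51 (10.2%, 7.67 to 13.2), against 9.27% and 9.09%. The HA-only and YFP-only shares lie within these intervals, which does not show them to be equal. The gap was more than 500 kb in 22 regions (4.39%, 2.77 to 6.57). Its 95th percentile was 484315 bp, against 485169 bp in HA-only and 480400 bp in YFP-only regions. The median distance between the ear summits was 313 bp at gaps up to 1 kb (11 regions) and 248.5 bp at gaps of 1 to 5 kb (22 regions). It was 242 bp at 5 to 10 kb (18 regions) and 191.5 bp at 10 to 50 kb (124 regions). At 50 to 100 kb it was 201 bp (89 regions), and beyond 100 kb 215 bp (237 regions). The nearest regions were also wider, with a median width of 1623 bp at gaps up to 1 kb.

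**Figure D5:**
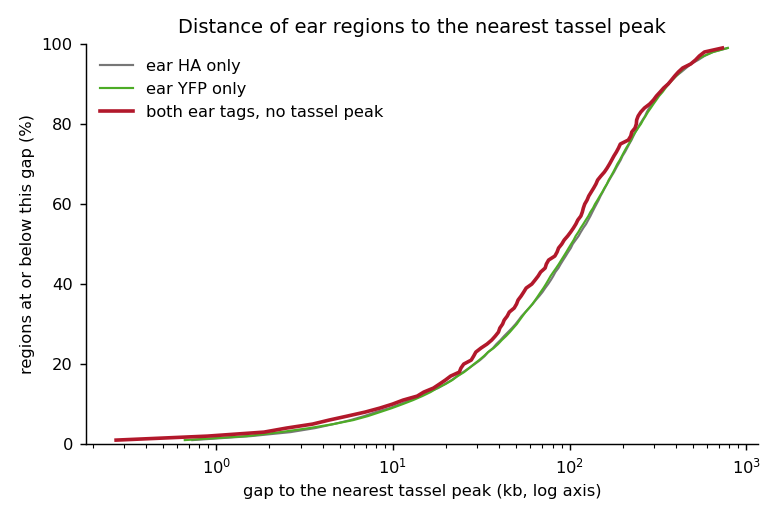
Cumulative share of ear regions (vertical axis, percent) by the gap to the nearest tassel peak of either tag (horizontal axis, kb, log scale), drawn at the 1st to 99th percentiles. The curve of regions with both ear tags, with a median of 90254 bp, runs close to those of HA-only and YFP-only ear regions, with medians of 104099 and 101961 bp.

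Few regions had a tassel peak close by. A gap of at most 1 kb (1000 bp) was found in 11 regions (2.20%, 1.10 to 3.89), against 1.36% of HA-only and 1.48% of YFP-only regions. The tassel peaks beside these 11 had heights of 2 to 6 fragments with a median of 4, in 5 cases in tassel HA and in 6 in tassel YFP. Such heights are common in tassel, where 65.9% of all peaks had fewer than 5 fragments. The closest gap was 25 bp, beside the region at chr9:87571970-87572323 named above as one of the narrowest. Its ear summits were 2 bp apart, and the neighbouring tassel region, with an HA peak at chr9:87571751-87571944, held both tassel tags, with 4 fragments and a score of 118 in HA. It was the only one of the 11 with both. The next 4 gaps were 103 bp at chr6:63568283-63570212, 121 bp at chr5:92384717-92385991, 125 bp at chr3:2565375-2566380 and 261 bp at chr4:36909337-36911112. In each of these 4 the HA peak lay inside the YFP peak, ear heights were 5 to 9 in HA and 8 to 12 in YFP, and the tassel peak had 2 to 6 fragments.

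Within 5 kb, 1 of 33 nearest tassel regions held both tassel tags (3.03%, 0.0767 to 15.8), against 621 of all 7027 tassel regions (8.84%), and 23 of 33 nearest tassel peaks had fewer than 5 fragments (69.7%, 51.3 to 84.4), against 65.9% of all tassel peaks. The farthest from any tassel peak were at chr7:30837739-30838612, at 1569331 bp, and at chr7:31116095-31116860, at 1301159 bp, both with heights of 5 to 6 in HA and 7 in YFP. The third was at chr6:53283820-53284338, at 938953 bp, with heights of 6 and 7. Neither the sequence of the regions nor their neighbouring genes were analysed here.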

How the data were processed

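The samples are 4 ChIP and 4 input libraries; the values of the latter were not used here. CASAVA and MACS 1.4.0rc2 are named in the submitters' processing notes, and the series text gives a p-value limit of 1e-05 against input DNA. Aligner settings and read filters are not stated in these sources. The authors' deposited score per peak was read as -10 log10 of the p-value, since none lies below 50. The authors' deposited summit signal, a whole number with no stated unit, was read as the pileup height in fragments, unscaled for depth. Coordinates are AGPv2 by the sequence names, with 1 added to starts. Off chromosomes 1 to 10 there were 7 ear HA and 16 ear YFP peaks and 0 regions of both tags. In a region with several HA peaks, the overlapping pair whose lower score was highest was used. Gaps run between borders.

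Python 3.11.15, numpy 2.4.6, pandas 2.3.3, scipy 1.17.1 and matplotlib 3.10.9 were used, and merging and pairing were tested on simulated lists. No p-value was computed, since peak calls chose the regions and each tissue and tag has 1 library. The regions and all rules were chosen with earlier results of these data known. The regions named are the 10 with the best worse rank of score, the 5 with the highest lower height, the 5 with the closest summits at scores of at least 70, the 5 nearest to and 3 farthest from a tassel peak, the 3 widest and 3 narrowest, the largest group linked by gaps under 100 kb, the 3 closest pairs, those with most peaks of 1 list and the extremes of the height ratio. The region with the smallest overlap, the closest miss, the comparisons at like height and width and the longest empty stretch were picked after their values were seen. The 7 alternatives were stricter score, height, overlap, summit and tassel limits, an ear YFP list of equal length and stronger tassel peaks only.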

Additional observations from a re-analysis of the deposited data

How the results depend on the processing

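Of 63 values (9 results under 7 alternatives), 38 stayed within the 95% binomial interval of the reported value, or for the number of regions within 1.5 times, and 25 did not. With an overlap of at least 50% of the shorter peak (460 regions) and with no tassel peak within 5000 bp (468 regions) all 9 stayed. All of these 460 and 468 regions belong to the reported set and make up most of it. Their values could therefore hardly leave the intervals, and that they stayed is not an independent check. The 38 also include the outer 40% share with both scores at least 100, which was 50% of only 2 regions. With both scores at least 100, 2 regions were left, with median widths of 1955.5 bp in HA and 2711.5 bp in YFP, heights of 9.5 and 12 fragments, a summit distance of 1393 bp, 0% with another within 100 kb and a tassel gap of 57188 bp. With both heights at least 10, 53 regions were left, with widths of 957 and 1205 bp, heights of 11 and 12, a summit distance of 247 bp, 56.6% in the outer 40% and 3.77% with another within 100 kb. With summits within 150 bp in place of overlap, 199 regions were left, with widths of 569 and 712 bp, a summit distance of 61 bp, which this rule limits, and 1.01% with another within 100 kb. With the ear YFP list at the length of the HA list, 274 regions were left, with a YFP width of 1073.5 bp and 3.65% with another within 100 kb. Against tassel peaks of score at least 100 only, there were 520 regions at a median gap of 366827 bp, since fewer tassel peaks remain. A limit on height raises the median heights by itself. A rule that keeps fewer regions also leaves fewer possible neighbours within 100 kb. The cause of the remaining shifts was not tested. Heights of a few fragments limit how well a summit is placed, and depth is unknown. No paired analysis was possible because each tissue and tag has 1 ChIP library and the labels carry no replicate numbers.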
